A study of Saccharomyces cerevisiae with 21 samples.

Results

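The yeast allele snf2-W935R was compared with the SNF2 wild type by messenger RNA sequencing, 3 libraries against 3. Snf2 is the ATPase of the chromatin remodeler Swi/Snf, and the allele name gives a tryptophan to arginine change in that protein. The 6 libraries are part of a series of 21, in 7 groups, on the part of Swi/Snf in transcriptional interference, the lowering of one promoter's use by transcription that runs across it. All strains were Saccharomyces cerevisiae of the W303 background, harvested by filtration from mid-log YPD (rich glucose) cultures, and the replicates of a group were taken on different days. Per the labels, each strain in use here from the SNF2 family lacks the chromosomal SNF2 gene and carries either snf2-W935R, snf2-Q928K, no SNF2 copy (snf2del) or wild-type SNF2, each written with the marker LEU2. A second wild type, called SWI3 below, lacks chromosomal SWI3 and carries SWI3 with LEU2. Whether a strain is a single clone is not given in the labels. Genes were kept where at least 3 of the 6 libraries had at least 1 TPM, a length-corrected level given as a share of all transcripts in that library, which left 6347 of 6407 genes and put 60 below the filter. SNF2's own level is not analysed here.

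Swi/Snf slides and evicts nucleosomes with the energy of ATP. It was found through genes that its mutants fail to express, HO, SUC2 and INO1 among them, and it acts with sequence-specific activators such as Pho4 and Gcn4, which turn on phosphate and amino acid genes. At SER3 its known part runs the other way. There, transcription of the noncoding SRG1 across the SER3 promoter keeps SER3 low, and loss of Swi/Snf raises it.

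The SNF2 libraries stood apart from the SWI3 wild type in a pair of ways, and these bear on every comparison with them. The first is a stretch of chromosome IV from GCD6 to EXG2 (R64 positions 884727 to 979209, 48 genes). The median log2 ratio of its genes to the SWI3 wild type was 0.08, -0.03 and 0.05 in the snf2-W935R libraries, against 0.92, 0.96 and 0.89 in the SNF2 libraries. The second is the genes within 20 kb of a chromosome end, where that median was 0.08, 0.07 and 0.07 in snf2-W935R, against -0.31, -0.20 and -0.31 in SNF2. The other alleles lay above it, at 0.46, 0.45 and 0.50 in snf2-Q928K and 0.86, 0.86 and 0.79 in snf2del. Results are therefore given with and without these genes, and with the SWI3 wild type in place of SNF2. That comparison uses the same snf2-W935R libraries, so it does not stand alone. LEU2, which the labels list in all these genotypes, was below 1 TPM in every snf2-W935R and SNF2 library and had 141, 174 and 138 TPM in snf2del. The strains read as mating type a: STE2, the alpha-factor receptor, had 356, 348 and 396 TPM in snf2-W935R, against 422, 479 and 406 TPM in SNF2, and STE3, the a-factor receptor, lay between 0.268 and 1.52 TPM in all 6. Read numbers cannot be recovered from TPM, so depth is unknown and counting error is not given. A level in bulk RNA does not tell fewer expressing cells from less RNA in each cell.

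The snf2-W935R transcriptome differed from SNF2 at 28.5% of genes tested. With limma (adjusted p under 0.05), 1023 genes (16.1%) were higher and 784 (12.4%) lower in snf2-W935R, and the median over all genes was 0.03 on the log2(TPM + 1) scale, on which all changes are given. Single libraries moved these counts by over 1.5 times: 631 genes were higher without snf2-W935R replicate 1 and 482 lower without snf2-W935R replicate 2. At least 2-fold, 91 genes (1.43%) were higher and 132 (2.08%) lower. The libraries of the groups did not overlap at 1621 genes (25.5%) higher and 1235 (19.5%) lower in snf2-W935R, called or not. Outside the chromosome IV stretch and the ends, 927 and 728 of 6089 genes were higher and lower, 61 and 110 of them 2-fold. The 453 names without an R64 match have no position and count as outside, so genes of these regions may be among the 6089. YDR230W and YDR250C, counted as outside, changed by -1.13 and -1.20 against SNF2. Against the SWI3 wild type they changed by -0.19 and -0.17. Against the SWI3 wild type 1120 (17.6%) and 1001 (15.8%) of 6353 genes were higher and lower. These shares are the background for all list counts below with that control. The authors' deposited table for the same comparison calls 161 genes higher and 137 lower, and gives an adjusted p for 4504 of its 6186 entries. Of its 294 calls among the genes tested here, 286 were called by limma in the same direction and 0 in the opposite one. Limma called 1653 of the genes with an entry there, so most limma calls are not calls in the authors' table.

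Part of the 2-fold changes fell into gene groups. Of the 91 rises, 30 were end genes, 8 arginine genes and 7 sulfate or methionine genes. Of the 132 falls, 41 were reading frames of the retrotransposon Ty1, 15 lay in the chromosome IV stretch, 7 were end genes, 7 phosphate genes, 6 5S ribosomal RNA genes and 4 iron genes, each gene being counted in the first class that held it. Names without an R64 match could not enter the stretch and end classes, so these counts may be too low. Among genes with a mean under 10 TPM 11.5% were higher and 3.66% lower, and among those of 250 TPM or more 21.3% were higher and 13.1% lower.

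**Figure D1:**
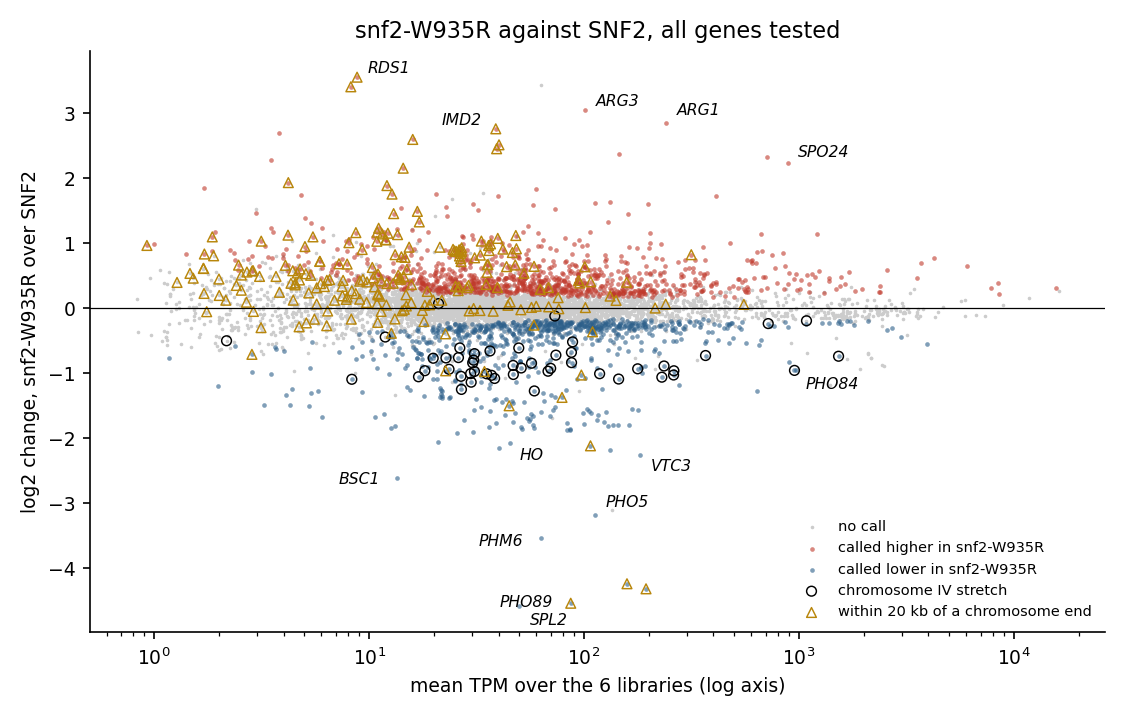
Each point is one of the 6347 genes, with its mean TPM over the 6 libraries (log axis) and its log2 change of snf2-W935R over SNF2. Red points were called higher and blue points lower in snf2-W935R, circles mark the chromosome IV stretch and triangles genes within 20 kb of a chromosome end. Phosphate genes make up the lowest points, at -4.58 for SPL2, and the circles have a median of -0.90.

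The largest falls were those of phosphate genes. The PHO regulon is a set of genes for phosphate uptake, scavenging and storage that the activator Pho4 turns on when phosphate is scarce. Of its 19 listed genes, all tested, 17 were lower and 0 higher in snf2-W935R, against a background of 12.4% and 16.1%, and the median change was -1.18. The list and the 17 include PHO3, an acid phosphatase gene that phosphate hardly controls. With each library left out in turn 17 remained the count, it was 17 with the SWI3 wild type as control (median -0.99), and outside the chromosome ends it was 14 of 15. Pho4 is known to bind CACGTG and CACGTT. Upstream stretches of 3 of the genes are printed to show these letters, which stand in capitals. The sequences are read 5' to 3' on the gene's strand from the R64 reference, a strain other than W303. SPL2 is shown from chrVIII:375181-375470, PHO5 from chrII:431177-431326 and PHO84 from chrXIII:26190-26245, all on the minus strand.
SPL2: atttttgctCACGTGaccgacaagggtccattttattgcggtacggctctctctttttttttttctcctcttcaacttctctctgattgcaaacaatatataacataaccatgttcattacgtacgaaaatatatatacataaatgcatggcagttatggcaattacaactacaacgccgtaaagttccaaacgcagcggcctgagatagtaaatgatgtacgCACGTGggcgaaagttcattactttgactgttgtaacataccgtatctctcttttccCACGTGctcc
PHO5: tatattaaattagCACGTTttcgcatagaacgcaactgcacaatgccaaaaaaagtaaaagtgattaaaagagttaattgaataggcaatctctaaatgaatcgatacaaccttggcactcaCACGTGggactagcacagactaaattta
PHO84: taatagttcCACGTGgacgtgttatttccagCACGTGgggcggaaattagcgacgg
The 3 CACGTG in the SPL2 window start 361, 147 and 90 bases before its annotated start. Over the 500 bases before each gene, on either strand, CACGTG was found in 68.4% of the 19 genes and in 6.31% of 5910 genes with a matched promoter. In the window planned first, from 250 bases before to 50 after the start, these shares were 21.1% and 2.98%. The list holds genes known for such letters, so the shares describe it and were not tested. Among all genes called higher and lower, 3.71% and 3.94% held CACGTG in the window planned first.

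SPL2, a small protein that dampens low-affinity phosphate uptake, had 2.78, 3.15 and 3.33 TPM in snf2-W935R, against 109, 94.1 and 87.8 TPM in SNF2. Its ratio of means was 31.4-fold in favour of SNF2, the log2 change was -4.58 ± 0.10 (SE) and limma's adjusted p was 2.73e-09. Every snf2-W935R library lay below 4 TPM and every SNF2 library above 87. Among the transporters, PHO89, which carries phosphate with sodium, had 8.23, 4.93 and 5.89 TPM in snf2-W935R, against 174, 173 and 155 TPM in SNF2 (-4.54 ± 0.15; it lies at a chromosome end). PHO84, the high-affinity transporter, moved far less, with 710.2, 632 and 629.5 TPM in snf2-W935R, against 1189, 1425 and 1198 TPM in SNF2. Its change of -0.95 ± 0.08 had an adjusted p of 2.77e-05 in the fit of the 6 libraries. When the snf2del and snf2-Q928K libraries joined the fit that call was lost (adjusted p = 0.331, same change), and PHO84 varied widely in snf2del, at 25.5, 175 and 23.6 TPM. PHO86, which packages Pho84 for the plasma membrane, changed by -0.63 ± 0.06, while the glycerophosphoinositol permease GIT1 was not called (0.33 ± 0.16, adjusted p = 0.156).

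The secreted acid phosphatases fell strongly. PHO5 had 24.05, 21.7 and 19.1 TPM in snf2-W935R, against 209, 219.7 and 183 TPM in SNF2, a change of -3.18 ± 0.10 with an adjusted p of 5.1e-08. PHO11 had 15.9, 14.4 and 14.8 TPM in snf2-W935R, against 289, 323 and 293 TPM in SNF2, and PHO12 had 18.1, 16.9 and 17.9 TPM in snf2-W935R, against 352, 406 and 354 TPM in SNF2. PHO11 and PHO12 are similar copies of each other close to chromosome ends, so reads may have been split between them. No library of one group reached into the range of the other for any of the 3, as for 19.5% of all genes tested (lower in snf2-W935R). PHO3, the acid phosphatase next to PHO5 that phosphate hardly controls, also fell (-1.57 ± 0.07), while the gene on the far side of PHO5, PBY1, was not called (0.08). The vacuolar alkaline phosphatase PHO8 had 103, 101 and 96.6 TPM in snf2-W935R, against 148, 171 and 156 TPM in SNF2 (-0.65 ± 0.07). PHM8, a phosphatase of lysophosphatidic acid and nucleotides, changed by -1.58 ± 0.08. PHM6, a phosphate-regulated gene with no assigned function, changed by -3.53 ± 0.22.

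Genes of the vacuolar polyphosphate polymerase moved unequally. VTC3 had 68.04, 58.7 and 61.4 TPM in snf2-W935R, against 329, 305 and 275 TPM in SNF2, a change of -2.25 ± 0.08, and VTC4, the catalytic subunit, had 174, 162 and 169 TPM in snf2-W935R, against 401, 376 and 373 TPM in SNF2 (-1.18 ± 0.06). VTC1, VTC2 and YDR089W (VTC5) changed by -0.82, -0.87 and -0.96, and all 5 passed the test. The polyphosphatase PPN1 did not (0.07, adjusted p = 0.37). PHO81, the inhibitor of the Pho80-Pho85 kinase that holds Pho4 in check and itself a Pho4 target, fell by 0.90. Around the regulon, 7 of 10 regulators and constitutive transporters were not called. PHO4 itself had 34.4, 34.9 and 32.6 TPM in snf2-W935R, against 30.3, 34.6 and 32.3 TPM in SNF2, with groups that overlapped and a change of 0.07 ± 0.07. PHO80 (-0.17), PHO85 (0.11), KCS1 (-0.04) and the low-affinity transporters PHO90 (-0.15) and PHO91 (0.05) were likewise not called. The inositol pyrophosphate kinase gene VIP1 fell (-0.41 ± 0.07) and PHO2, Pho4's partner, rose (0.26 ± 0.07), a call that was lost in part of the alternatives. The exception in size was PHO87, a low-affinity phosphate transporter, with 96.6, 89.6 and 94.00 TPM in snf2-W935R, against 24.4, 26.5 and 25.5 TPM in SNF2. It rose by 1.84 ± 0.07 (adjusted p = 1e-07), with no overlap of the groups, as for 25.5% of all genes tested (higher in snf2-W935R).

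**Figure D2:**
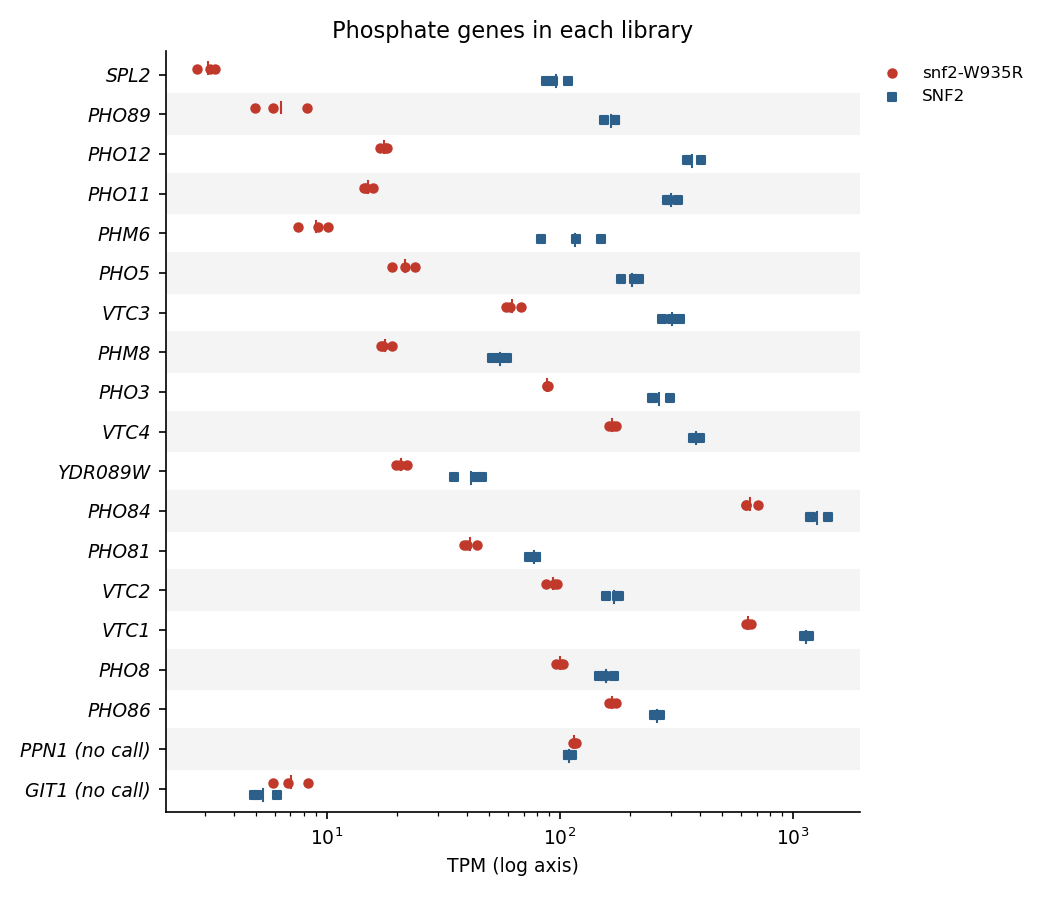
TPM (log axis) of the 19 PHO regulon genes in each of the 3 snf2-W935R libraries (red circles) and 3 SNF2 libraries (blue squares), with a tick at each group mean. The groups are apart for the 17 called genes, from SPL2 with means of 3.09 and 97.0 TPM to PHO86, and close for PPN1 and overlapping for GIT1.

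Arginine synthesis rose. Of 15 genes of arginine synthesis, breakdown and their control, 10 were higher, 8 of them at least 2-fold, and 1 was lower. The background was 16.1% higher and 12.4% lower. The median of the list was 1.16, against 0.03 over all genes. With the SWI3 wild type as control 8 were higher and 2 lower. Gcn4, the activator of amino acid synthesis genes, is known to bind TGACTC. Upstream stretches of ARG1 (chrXV:218856-218950) and ARG5,6 (chrV:295170-295250), both on the plus strand of R64, are printed with these letters on either strand in capitals.
ARG1: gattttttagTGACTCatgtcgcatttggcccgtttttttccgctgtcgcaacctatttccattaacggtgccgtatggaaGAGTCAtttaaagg
ARG5,6: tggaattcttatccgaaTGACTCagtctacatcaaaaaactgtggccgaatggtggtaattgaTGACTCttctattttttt
TGACTC on either strand was found in the 500 bases before 86.7% of the arginine genes, before 69.6% of 46 other Gcn4 amino acid genes and before 12.8% of 5910 promoters. From 250 bases before to 50 after the start these shares were 46.7%, 58.7% and 8.07%.

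ARG3, which makes citrulline from ornithine, had 175, 183 and 179 TPM in snf2-W935R, against 30.5, 10.6 and 27.2 TPM in SNF2. The snf2-W935R libraries were close together and above all SNF2 libraries, which were spread nearly 3-fold, and the change was 3.05 ± 0.43 with an adjusted p of 0.00938. ARG1, argininosuccinate synthase, had 408, 427 and 436 TPM in snf2-W935R, against 62.2, 44.3 and 70.4 TPM in SNF2, a change of 2.85 ± 0.16 and an adjusted p of 4.33e-05. ARG5,6, a protein cut into an early pair of enzymes of ornithine synthesis, had 233, 232 and 269.7 TPM in snf2-W935R, against 53.4, 40.4 and 46.9 TPM in SNF2 (2.37 ± 0.10). The groups did not overlap for any of these genes, as for 25.5% of all genes tested (higher in snf2-W935R).
CPA1, of carbamoyl phosphate synthesis, rose, with 621, 615 and 649.9 TPM in snf2-W935R, against 199.7, 174 and 195 TPM in SNF2 (1.73 ± 0.07). YOR302W, the upstream reading frame through which arginine lowers CPA1, ends 56 bases before CPA1 and rose by 2.32 ± 0.25, so both may draw on the same transcripts. The gene after CPA1, ISW2, was not called (-0.02). ARG4, argininosuccinate lyase, changed by 1.61 ± 0.08, ARG7 by 1.18 ± 0.06 and ARG8 by 1.16 ± 0.06, and the first enzyme, ARG2, by 0.47 ± 0.10. CAN1, the arginine permease, rose by only 0.24 ± 0.07, a call lost in part of the alternatives.
Of the breakdown genes 1 fell. CAR2, ornithine aminotransferase, had 9.98, 6.32 and 6.45 TPM in snf2-W935R, against 30.2, 41.02 and 31.8 TPM in SNF2, and fell by 2.05 with an adjusted p of 9.28e-05. CAR1, arginase, was not called (-0.03 ± 0.06), nor were the arginine regulators ARG80 (0.14), ARG81 (-0.21) and ARG82 (0.08).

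**Figure D3:**
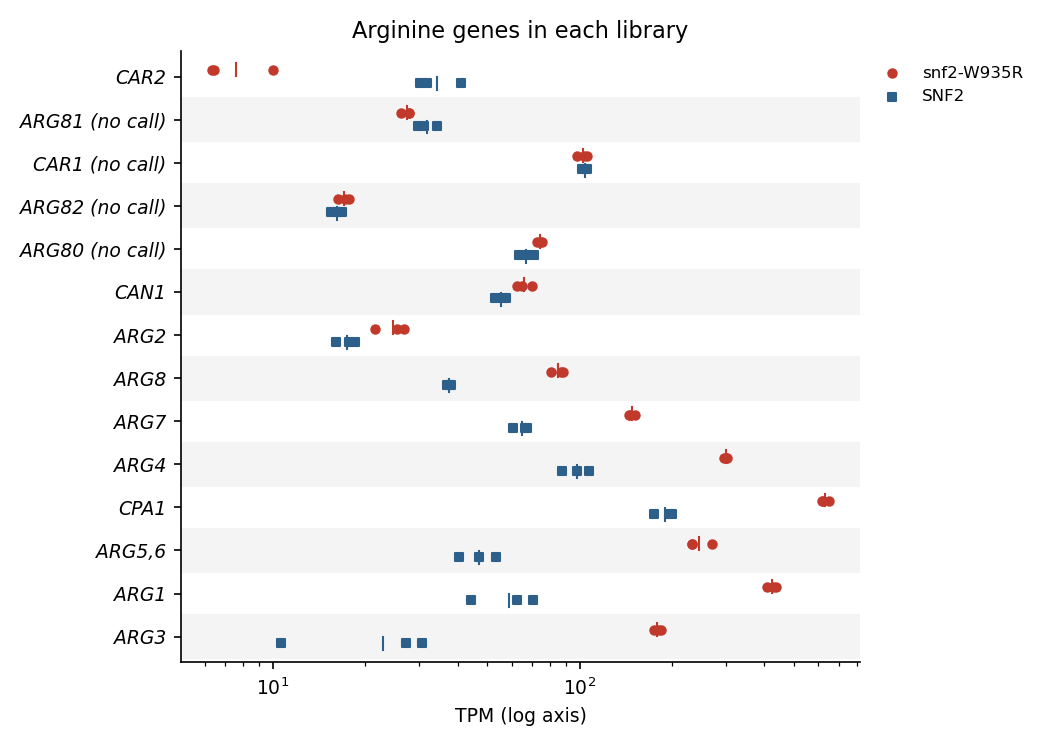
TPM (log axis) of arginine genes in each snf2-W935R library (red circles) and SNF2 library (blue squares), with a tick at each group mean. Synthesis genes from ARG2 to ARG3 lie higher in snf2-W935R, CAR2 lies lower, and 4 genes are marked as not called.

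Sulfate assimilation and methionine genes rose as well, 22 of 31 higher and 3 lower, against a background of 16.1% and 12.4%. Their median was 0.58. Against the SWI3 wild type 24 were higher and 2 lower. Cbf1, the partner of Met4, is known to bind the same CACGTG letters as Pho4, and 67.7% of these genes held CACGTG in the 500 bases upstream. From 250 bases before to 50 after the start that share was 29.0%. Windows from MET28 (chrIX:384210-384349, minus strand) and MET3 (chrX:455849-455899, plus strand) show it in capitals, with TGACTC also in capitals in MET28, for comparison with the phosphate genes above.
MET28: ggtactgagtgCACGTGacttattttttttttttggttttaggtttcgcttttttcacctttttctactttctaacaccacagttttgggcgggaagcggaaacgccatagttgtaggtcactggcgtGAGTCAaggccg
MET3: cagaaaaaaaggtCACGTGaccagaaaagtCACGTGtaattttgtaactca
CACGTG thus stood before genes whose levels were higher and before genes whose levels were lower in snf2-W935R.

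MET28, a cofactor of Met4, had 30.4, 33.8 and 31.9 TPM in snf2-W935R, against 9.48, 9.37 and 7.65 TPM in SNF2 (1.75 ± 0.10, adjusted p = 1.06e-06). MET17, which joins sulfide to a carbon chain, had 1651, 1664 and 1673 TPM in snf2-W935R, against 690.4, 808 and 761 TPM in SNF2 (1.14 ± 0.07), and MET6, methionine synthase, had 903, 917 and 918 TPM in snf2-W935R, against 389, 451 and 402 TPM in SNF2 (1.14 ± 0.07). In all 3 the snf2-W935R libraries lay above the SNF2 libraries, as for 25.5% of all genes tested. MET13 (a methylenetetrahydrofolate reductase, 1.26), SUL2 (a sulfate permease, 1.18), MET5 (sulfite reductase, 1.07), MET3 (ATP sulfurylase, 0.99) and MET14 (the next kinase, 0.39) were called higher. SUL1, the other sulfate permease, was not (-0.03 ± 0.10). CYS4, which leads from homocysteine towards cysteine, fell by 0.48, and SAM1, which makes S-adenosylmethionine, by 0.26. The third fall, MET32 (-0.61), lies in the chromosome IV stretch and was higher by 0.36 against the SWI3 wild type. MET4 (0.19), CBF1 and MET31 (0.04) were not called.

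The other amino acid genes of Gcn4 changed less. Of 46, 27 were higher and 3 lower, against a background of 16.1% and 12.4%. Their median was 0.26, and none rose 2-fold. HOM2, of the aspartate pathway, had 876, 878 and 876 TPM in snf2-W935R, against 489.9, 497 and 440.1 TPM in SNF2 (0.88 ± 0.06), and ARO1, of aromatic amino acid synthesis, changed by 0.76 ± 0.06. HIS4, of histidine synthesis, changed by 0.65 ± 0.07. The 3 falls were BAT2, the cytosolic branched-chain aminotransferase, with 66.9, 65.9 and 58.6 TPM in snf2-W935R, against 209, 238 and 224 TPM in SNF2 (-1.80 ± 0.07), LYS9 (-0.49), and LYS4 in the chromosome IV stretch (-0.93). GCN4's own level had 1427, 1358 and 1433 TPM in snf2-W935R, against 1185, 1310.3 and 1090.5 TPM in SNF2. It rose slightly (0.24 ± 0.07, adjusted p = 0.0394) against SNF2, and the change against the SWI3 wild type was 0.09. Of the genes bordering the known Gcn4 set, ALT2, a homologue of alanine transaminase, had 87.1, 85.7 and 88.8 TPM in snf2-W935R, against 27.9, 28.9 and 28.2 TPM in SNF2 (1.59 ± 0.06), while neither neighbour rose as much (FOB1 0.01 and PDS1 0.27).

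Iron genes fell in part. Of 32 iron uptake and iron sparing genes, 15 were lower, 6 of them 2-fold, and 3 higher, with a median of -0.28. The background was 12.4% lower and 16.1% higher. The SWI3 wild type gave 12 lower and 5 higher and a median of -0.02. Aft1 is known to bind CACCC within a longer site, and the window of TIS11 (chrXII:416817-416915, minus strand of R64) shows these letters in capitals on both strands.
TIS11: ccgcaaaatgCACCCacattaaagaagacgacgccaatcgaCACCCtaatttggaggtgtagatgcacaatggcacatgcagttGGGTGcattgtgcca
CACCC on either strand was found in the 500 bases before 87.5% of the iron genes and before 33.4% of 5910 promoters.

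TIS11, which speeds the decay of iron-using messages when iron is scarce, had 14.6, 14.5 and 13.1 TPM in snf2-W935R, against 57.1, 68.9 and 72.4 TPM in SNF2 (-2.15 ± 0.10, adjusted p = 2.17e-07). In the SWI3 wild type it had 31.1, 30.3 and 28.96 TPM, and the change against that group was -1.05. The siderophore transporter SIT1 had 42.3, 41.6 and 49.1 TPM in snf2-W935R, against 146, 168 and 150.2 TPM in SNF2 (-1.78 ± 0.08), and ENB1, an end gene of like function, changed by -2.12. ARN1, also an end gene and a siderophore transporter, fell too. SIT1, ENB1 and ARN1 were also called lower against the SWI3 wild type, with changes of -1.26, -1.54 and -1.07. The reductase FRE4 fell by 1.71 and the haem oxygenase HMX1 by 1.52. The reductive uptake pair FET3 and FTR1 were called lower against SNF2 (-0.49 and -0.53), and were -0.08 and 0.02 with the SWI3 wild type as control. ISU1, the scaffold on which iron-sulfur clusters are built, rose with 388, 385 and 347 TPM in snf2-W935R, against 231, 254 and 239.9 TPM in SNF2 (0.62 ± 0.07). The cell wall proteins FIT2 and FIT3 were not called, and FIT2 had 114, 175 and 212 TPM in snf2-W935R, against 207, 301 and 316 TPM in SNF2, with overlapping groups. The authors' deposited table does call FIT2 lower (log2 fold change -0.74, the authors' adjusted p = 0.0113). Of 16 zinc genes 3 were higher and 3 lower, near the background of 16.1% and 12.4%. Among those lower was ZRT1, the high-affinity zinc transporter, with 25.5, 23.97 and 25.5 TPM in snf2-W935R, against 86.2, 88.03 and 75.3 TPM in SNF2 (-1.69 ± 0.08).

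Reading frames inside Ty1 elements were lower almost throughout. Against a background of 12.4% and 16.1%, 60 of 61 were lower (42 of them 2-fold) and 0 higher, with a median of -1.38. These lists of Ty and 5S genes were drawn from the annotation after values had been seen. Ty1 copies resemble each other, so reads cannot be given to one copy and the 61 are not independent. YAR009C, for example, had 71.4, 69.5 and 74.5 TPM in snf2-W935R, against 229, 265 and 262 TPM in SNF2 (-1.79 ± 0.07) and has 31 similar copies among the genes, and YMR046C changed by -1.88. The SWI3 wild type gave 61 of 61 lower. Of 20 Ty2 frames 9 were lower with a median of -0.69, and 20 with SNF2 replicate 1 left out or with SWI3 as control. YOR192C-B had 36.3, 34.4 and 35.7 TPM in snf2-W935R, against 62.8, 80.1 and 80.4 TPM in SNF2 (-1.04 ± 0.10), with SNF2 replicate 1 the lowest of its group. Of 3 Ty3 frames and 2 Ty4 frames none was called, and YIL082W-A of Ty3 had 29.7, 29.2 and 30.9 TPM in snf2-W935R, against 27.3, 31.5 and 28.1 TPM in SNF2.
All 6 genes of the 5S ribosomal RNA, which RNA polymerase III makes, were lower, with a median of -1.56. They share sequence, and their RNA as a rule has no poly(A) tail, while the libraries were poly(A) selected. The part of that step in these levels was not tested. RDN5-1 had 39.5, 35.7 and 33.4 TPM in snf2-W935R, against 124, 130.5 and 153 TPM in SNF2 (-1.88 ± 0.09). The SWI3 wild type lay between, at 65.6, 70.6 and 82.7 TPM, and 5 of 6 were lower against it.

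Among the genes known to need Swi/Snf, HO fell, as did PHO5 above, and some others did not. HO, the endonuclease of mating type switching, had 17.3, 15.8 and 16.7 TPM in snf2-W935R, against 75.99, 69.7 and 74.4 TPM in SNF2, a change of -2.08 ± 0.07 with an adjusted p of 8.47e-08. Of the 14 genes on that list, 4 were lower and 2 higher, against a background of 12.4% and 16.1%. Set against snf2del, 10 of the 14 were lower and 3 higher in snf2-W935R, where 49.1% and 23.6% of all genes were. INO1, of inositol synthesis, had 5.69, 5.85 and 4.56 TPM in snf2-W935R, against 4.73, 5.33 and 6.24 TPM in SNF2, with overlapping groups and a change of -0.01 ± 0.16 (adjusted p = 0.956). SUC2, invertase, was higher by 0.27 ± 0.07 against SNF2 and 0.03 against the SWI3 wild type. All cultures were in YPD, so whether the allele alters INO1 or SUC2 in other media was not tested.
BSC1 and PRM7, neighbours on chromosome IV, fell together. BSC1 had 3.35, 3.20 and 2.55 TPM in snf2-W935R, against 19.9, 23.1 and 28.5 TPM in SNF2 (-2.61 ± 0.15, adjusted p = 1.17e-06), and PRM7, a pheromone-regulated gene, had 10.4, 8.86 and 9.79 TPM in snf2-W935R, against 29.99, 34.7 and 59.4 TPM in SNF2 (-1.93 ± 0.25). The genes on either side, NAT1 (-0.01) and PUS9, were not called.
Other falls, named singly and not as a group, included the following genes. PTR2, the permease for small peptides, had 51.1, 40.7 and 49.00 TPM in snf2-W935R, against 218, 237 and 192 TPM in SNF2 (-2.18 ± 0.10). The wall mannoproteins TIR1 (-1.84), TIR3 (-1.81) and TIP1 (-1.55) and the secreted glycoprotein YGP1 (-1.62) fell, as did the membrane proteins MRH1 (-1.27) and YRO2 (-1.68), but HSP30 of the same family was not called (0.11). TAT1, an amino acid permease, fell by 1.07, HXT1, a low-affinity glucose transporter, by 0.92, and BAR1, the protease that degrades alpha-factor, by 1.36. Against SNF2, the larger lists that most of these genes belong to did not lean the same way. The background was 16.1% higher and 12.4% lower. Of 35 wall proteins 11 were higher and 6 lower, of 14 PAU, DAN and TIR genes 3 and 2, of 27 amino acid and peptide permeases 9 and 6, and of 19 hexose transport genes 5 and 2. The PAU, DAN and TIR counts depended on end genes and on the control. Outside the ends 1 of 10 was higher and 2 lower. With the SWI3 wild type as control 1 of 14 was higher and 5 lower, with a median of -0.19. Small lists did lean with the falls. Of 7 a-specific genes, BAR1 among them, 0 were higher and 3 lower, against a background of 16.1% and 12.4%. The calls of MFA1 (-0.61) and STE2 (-0.25) were each lost in part of the alternatives. Of the 3 genes of the MRH1 and YRO2 family 0 were higher and 2 lower.

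Mitochondrial genes rose by small amounts and together. The background was 16.1% higher and 12.4% lower. Among 50 genes for the citric acid cycle and respiration, 44 were higher and 0 lower, with a median of 0.46. Of 69 mitochondrial ribosomal protein genes 56 were higher and 1 lower, with a median of 0.36. That fall, MRPL7, lies in the chromosome IV stretch. The SWI3 wild type gave 41 and 56 higher and 0 lower in both. ACO1, aconitase, had 639, 630.1 and 651 TPM in snf2-W935R, against 302, 339 and 313 TPM in SNF2 (1.01 ± 0.06), and IDH1, isocitrate dehydrogenase, had 273, 255 and 263 TPM in snf2-W935R, against 142, 141 and 132 TPM in SNF2 (0.93 ± 0.06). QCR6 and RIP1 of the cytochrome bc1 complex changed by 0.86 and 0.92. CIT2, the peroxisomal citrate synthase, rose by 1.52 ± 0.12 and ODC2, a mitochondrial carrier of oxodicarboxylates, by 1.45 ± 0.06. AAC1, a minor isoform of the ADP/ATP carrier, had 22.2, 21.4 and 20.9 TPM in snf2-W935R, against 6.63, 7.35 and 6.28 TPM in SNF2 (1.54 ± 0.10). CYC7, the minor isoform of cytochrome c, had 41.01, 28.8 and 32.2 TPM in snf2-W935R, against 11.7, 13.4 and 11.1 TPM in SNF2 (1.41 ± 0.13).
Of 26 glycolysis and fermentation genes 16 were higher and 3 lower, with a median of 0.40. GLK1, glucokinase, had 210.5, 173 and 174 TPM in snf2-W935R, against 64.2, 83.9 and 72.4 TPM in SNF2 (1.33 ± 0.11), and PYK2, the minor pyruvate kinase, changed by 1.05 ± 0.10. Of 26 chaperones under Hsf1 16 were higher and 1 lower (median 0.28), and of 39 stress genes under Msn2 and Msn4 12 were higher and 2 lower (median 0.27), against a background of 16.1% and 12.4%. HSP60, the mitochondrial chaperonin, had 735, 729 and 763 TPM in snf2-W935R, against 439, 441 and 463 TPM in SNF2 (0.73 ± 0.06), and HSP42, a small heat shock protein, changed by 1.13 ± 0.12. Outside these lists, SPO24, a small sporulation protein, had 1599, 1567 and 1214 TPM in snf2-W935R, against 310.0, 281 and 336 TPM in SNF2 (2.23 ± 0.12). ICY2, of unknown function, had 160.2, 173 and 176 TPM in snf2-W935R, against 52.5, 52.6 and 59.9 TPM in SNF2 (1.61 ± 0.07).

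Ribosome assembly went down slightly. Of 82 genes for ribosomal RNA processing and ribosome assembly 58 were lower and 0 higher (median -0.24), against a background of 12.4% and 16.1%. Of 20 subunits of RNA polymerases I and III 10 were lower and 0 higher (median -0.20). These counts depend on single libraries. The assembly list had 22 lower without snf2-W935R replicate 2, 24 without replicate 1 and 37 without SNF2 replicate 1, and the polymerase list had 4, 4 and 5. NSR1, a nucleolar protein of ribosomal RNA processing, had 411, 414 and 427 TPM in snf2-W935R, against 589, 582 and 543 TPM in SNF2 (-0.45 ± 0.06), and DBP2, an RNA helicase, changed by -0.50 ± 0.06. Cytosolic ribosomal protein genes were mostly not called: of 136, 11 were lower and 1 higher, with a median of -0.08. The number lower was 1, 0 and 4 without snf2-W935R replicates 1, 2 and 3, 17 without SNF2 replicate 3 and 56 with the SWI3 wild type as control. Of 17 genes of purine synthesis and IMP dehydrogenases 8 were lower and 2 higher, against a background of 12.4% and 16.1%. Outside the chromosome ends 8 of 16 were lower and 1 higher. With the SWI3 wild type as control 12 of 17 were lower and 2 higher, against 15.8% and 17.6%. ADE17, of purine synthesis, had 131, 123 and 126 TPM in snf2-W935R, against 252, 273 and 198 TPM in SNF2 (-0.91 ± 0.11), and HPT1, of purine salvage, had 529.5, 536 and 522 TPM in snf2-W935R, against 771, 798 and 771 TPM in SNF2 (-0.56 ± 0.05).

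Genes for chromatin factors changed by small amounts. Of 11 Swi/Snf subunit genes 5 were higher and 0 lower, against a background of 16.1% and 12.4%. With the SWI3 wild type as control 8 were higher and 0 lower, against 17.6% and 15.8%. SWI1 had 34.6, 32.97 and 35.7 TPM in snf2-W935R, against 22.2, 25.2 and 23.9 TPM in SNF2 (0.52 ± 0.08), and SNF11, SWP82 and ARP7 changed by 0.42, 0.39 and 0.24. SWI3, the subunit altered in the other strains of the series, had 44.2, 44.3 and 47.8 TPM in snf2-W935R, against 45.3, 43.8 and 44.8 TPM in SNF2, and was not called (0.03). Of 42 genes of other remodelers 1 was higher (IES6, 0.68) and 0 lower, and of 30 elongation factor and histone chaperone genes 1 was higher and 0 lower. With the SWI3 wild type as control the remodeler list had 7 higher and 0 lower. The elongation and chaperone list had 7 higher and 1 lower there. Of 11 histone genes 1 was called, HTA1, lower by 0.24 against SNF2, where it lies in the chromosome IV stretch, and -0.26 against the SWI3 wild type. That call was lost with some single libraries left out.

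**Figure D4:**
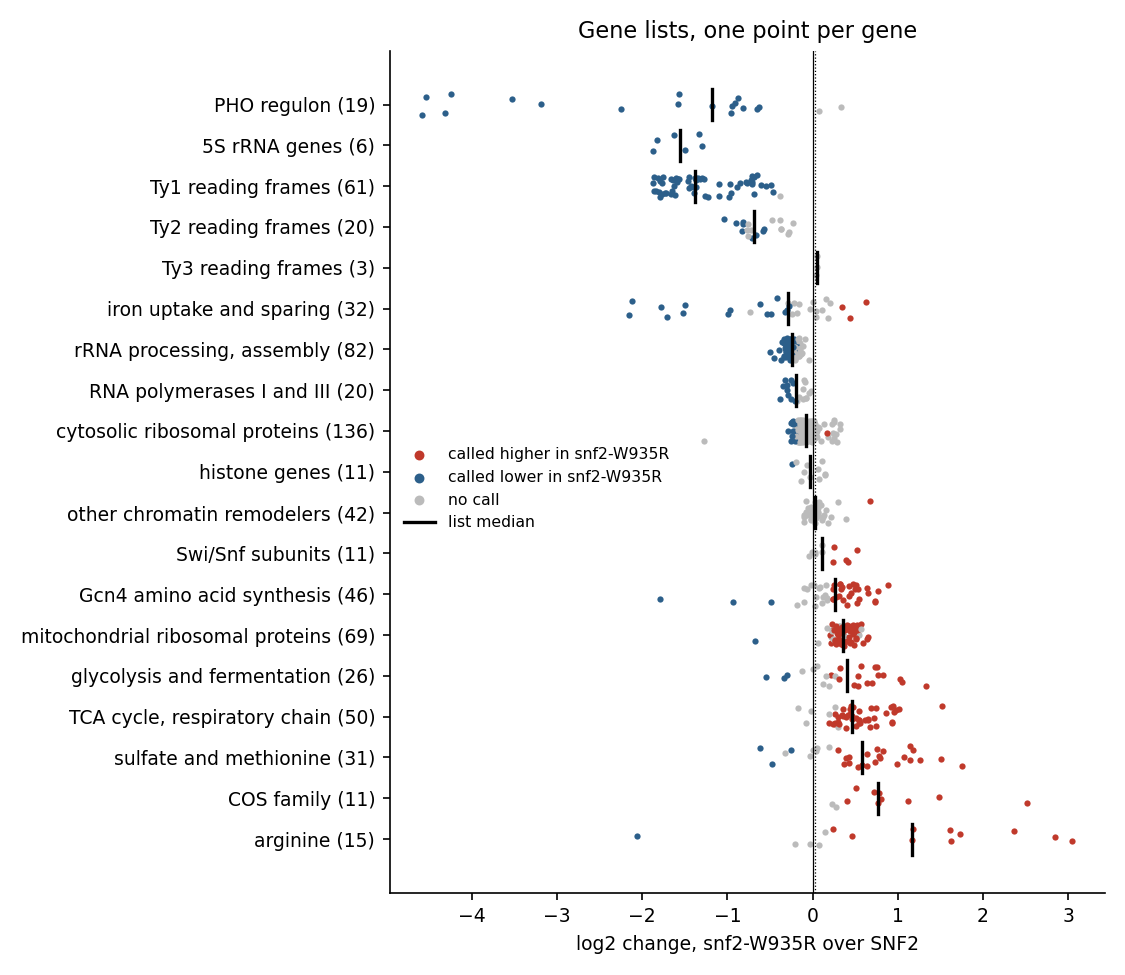
Each point is one gene of a list (the number tested in brackets) at its log2 change of snf2-W935R over SNF2. Red points were called higher, blue points lower and grey points not at all, the bars are list medians and the dotted line is the median of all genes, 0.03. PHO, 5S and Ty1 lists lie left of 0, and the arginine, COS, sulfate and mitochondrial lists right of it.

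The genes of the regions where the SNF2 libraries stood apart gave other counts with the SWI3 wild type. In the chromosome IV stretch 43 of 48 genes were lower and 0 higher, with a median of -0.90, and against the SWI3 wild type 5 were lower and 12 higher, with a median of 0.04. Of 210 end genes 96 were higher and 13 lower, and of 214 against the SWI3 wild type 42 and 31. RDS1, a zinc cluster regulator, had 17.1, 15.9 and 18.03 TPM in snf2-W935R, against 0.275, 0.608 and 0.762 TPM in SNF2, and the SWI3 wild type had 17.7, 14.3 and 16.5 TPM. ADH7, an alcohol dehydrogenase beside it, had 16.5, 17.8 and 13.2 TPM in snf2-W935R, against 0.436, 0.704 and 0.614 TPM in SNF2, and the SWI3 wild type 16.5, 15.5 and 15.6 TPM. Of 11 COS genes 9 were higher against SNF2 and 0 against the SWI3 wild type. Some end genes were called in the same direction against both wild types. Among them, IMD2, of guanine nucleotide synthesis, had 68.97, 69.6 and 66.4 TPM in snf2-W935R, against 7.88, 11.2 and 8.92 TPM in SNF2 (2.76 ± 0.11) and was higher by 1.16 against the SWI3 wild type, and PHO11, PHO12, PHO89, ENB1 and ARN1 were lower against both.

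Set beside the other SNF2 alleles, snf2-W935R libraries correlated more closely with snf2-Q928K and SNF2 than with snf2del. Over all genes the correlation of log2 levels between libraries, given as a description, was 0.971 to 0.974 with snf2-Q928K, 0.970 to 0.973 with SNF2 and 0.905 to 0.927 with snf2del. In a direct comparison, 903 of 6371 genes (14.2%) were higher and 1901 (29.8%) lower in snf2-W935R than in snf2-Q928K, 27 and 158 of them 2-fold. Against snf2del 1508 of 6391 genes (23.6%) were higher and 3141 (49.1%) lower, 72.7% in all, 176 and 990 of them 2-fold. The comparisons share the snf2-W935R libraries. Higher and lower counts move with scaling: with median-ratio scaling they were 1475 and 1503 against snf2-Q928K, and 2327 and 2363 against snf2del.
Cytosolic ribosomal protein genes were mostly higher than in the other alleles. Of the 136 genes 101 were higher and 1 lower in snf2-W935R than in snf2-Q928K, and 131 and 1 against snf2del. Of the 82 assembly genes 32 were higher and 1 lower than in snf2-Q928K, and 80 were higher and 0 lower than in snf2del. Stress genes ran opposite, 33 of 39 lower than in snf2-Q928K and 38 of 39 lower than in snf2del, and 0 higher in both. RTS3, an example of the genes that climb with loss of Snf2, had 80.1, 78.3 and 68.7 TPM in snf2-W935R, 258, 309 and 282 TPM in snf2-Q928K, 1069, 887 and 951 TPM in snf2del and 45.03, 47.7 and 50.2 TPM in SNF2. Each direct difference was called (-1.89 ± 0.08 against snf2-Q928K and -3.66 ± 0.08 against snf2del).

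Phosphate and arginine genes did not follow one order. PHO5 had 24.05, 21.7 and 19.1 TPM in snf2-W935R, 32.3, 28.7 and 27.5 TPM in snf2-Q928K and 21.2, 27.8 and 27.95 TPM in snf2del. The allele was a little below snf2-Q928K (-0.43 ± 0.10, adjusted p = 0.00544), and against snf2del the difference was -0.23 ± 0.12 with a 95% interval of -0.50 to 0.04 (adjusted p = 0.113). SPL2 had 1.91, 1.05 and 2.72 TPM in snf2-Q928K and 1.37, 3.44 and 1.02 TPM in snf2del, and the difference of snf2-W935R from snf2-Q928K was not called, 0.54 (95% interval 0.00 to 1.07). PHO84 parted them: it was 3.76 higher in snf2-W935R than in snf2del (adjusted p = 0.0193) and 0.31 lower than in snf2-Q928K. ARG1 had 408, 427 and 436 TPM in snf2-W935R, 459, 374 and 378 TPM in snf2-Q928K and 188, 189.9 and 200.4 TPM in snf2del. Its difference was 0.08 ± 0.08 against snf2-Q928K (95% interval -0.10 to 0.25, adjusted p = 0.461) and 1.13 ± 0.06 against snf2del (adjusted p = 8.09e-08). Ty1 frames were lower in 4 and higher in 1 of 61 against snf2-Q928K, and higher in 41 and lower in 5 against snf2del. The 6 5S genes were all lower than in either: RDN5-1 had 39.5, 35.7 and 33.4 TPM in snf2-W935R, 117, 126 and 108 TPM in snf2-Q928K and 721, 1180.0 and 702 TPM in snf2del.

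Some genes that differed strongly in at least 1 other allele stayed near wild type in snf2-W935R. SER3, the first enzyme of serine synthesis, had 42.5, 41.7 and 42.4 TPM in snf2-W935R, 993, 946 and 1055 TPM in snf2-Q928K, 369, 393 and 395 TPM in snf2del and 33.4, 33.6 and 27.8 TPM in SNF2. The snf2-W935R libraries lay just above the SNF2 libraries (0.41 ± 0.08, adjusted p = 0.00527), a call not made against the SWI3 wild type (0.15 ± 0.06, adjusted p = 0.0947), and far below both other mutants (-4.53 ± 0.06 against snf2-Q928K and -3.16 ± 0.06 against snf2del). SRG1, whose annotated end overlaps SER3 by 77 bases, had 40.3, 32.6 and 30.6 TPM in snf2-W935R, against 34.4, 30.7 and 33.6 TPM in SNF2, with overlapping groups and a change of 0.06 ± 0.10.
YHB1, the flavohaemoglobin that removes nitric oxide, had 1434, 1349.9 and 1357 TPM in snf2-W935R, 122, 136 and 138 TPM in snf2-Q928K, 35.1, 36.6 and 44.01 TPM in snf2del and 1466, 1579 and 1415 TPM in SNF2. It was not called against SNF2 (-0.11 ± 0.06, 95% interval -0.25 to 0.04), was lower by 0.26 against the SWI3 wild type, and was higher by 3.38 ± 0.06 than in snf2-Q928K and by 5.13 ± 0.08 than in snf2del. HPF1, a wall mannoprotein, had 76.7, 73.00 and 73.5 TPM in snf2-W935R, 385, 348 and 339.9 TPM in snf2-Q928K, 343, 433 and 323 TPM in snf2del and 62.03, 72.9 and 71.4 TPM in SNF2. Its snf2-W935R and SNF2 libraries differed by 0.12 ± 0.07, without a call. INA1, a membrane protein, was lower than SNF2 by 0.36 and higher than snf2del by 3.81 ± 0.09.
BSC1 and HO took other positions. BSC1 had 20.6, 19.8 and 20.4 TPM in snf2-Q928K and 7.86, 6.69 and 6.29 TPM in snf2del, so that the snf2-W935R libraries were the lowest (-2.40 ± 0.13 and -0.98 ± 0.17). HO was lower still in the other mutants, at 3.69, 3.22 and 3.41 TPM in snf2-Q928K and 3.20, 3.15 and 2.51 TPM in snf2del, and snf2-W935R lay above them by 1.99 ± 0.13 and 2.16 ± 0.14.

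**Figure D5:**
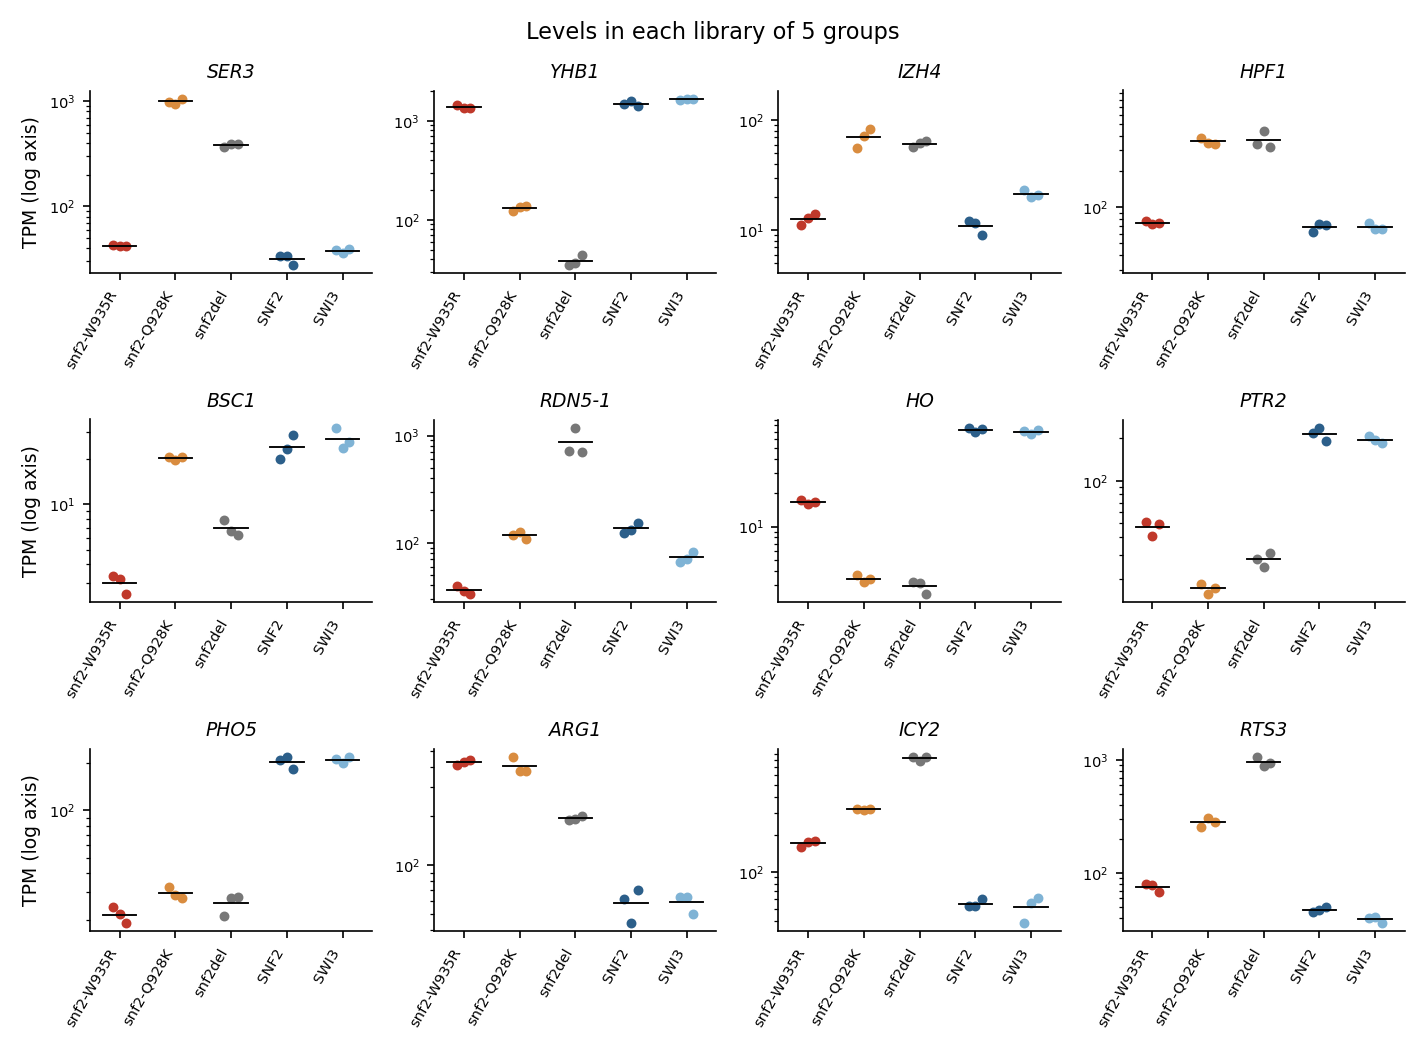
TPM (log axes, each with its own range) of 12 genes in the 3 libraries of snf2-W935R, snf2-Q928K, snf2del, SNF2 and the SWI3 wild type, with a bar at each mean. In snf2-W935R, SER3, YHB1 and HPF1 lie near both wild types, BSC1 and RDN5-1 lie below all other groups, and HO lies between the other mutants and the wild types.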

How the data were processed

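Poly(A) RNA libraries were made with a directional kit, per the labels. The submitters' processing notes list HISAT2, StringTie, DESeq2, sacCer3 and R64; no version or setting is stated there. The deposited table holds TPM of 6407 genes, scaled by the authors to each library, per the file headers. The authors' deposited comparison table gives a log2 fold change of snf2-W935R over SNF2, its standard error, a statistic (score) and p-values before and after adjustment. What these were computed from is not stated. The comparison table also gives a mean level per gene, which is of the size of the TPM. It is 86.0 for PHO89, where the group means were 6.35 TPM in snf2-W935R and 167 TPM in SNF2. For VTC1 it is 880, where they were 646 and 1141 TPM.

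Changes were fitted with limma 3.58.1 (R 4.3.3, statmod 1.5.0; trended, robust moderation) on the log2(TPM + 1) scale, a pseudocount of 1, in the 6 libraries of a comparison, for genes of at least 1 TPM in at least 3 of them. Adjusted p are limma's, two-sided, by Benjamini-Hochberg over all genes tested, with n = 3 per group, and a call is an adjusted p under 0.05. TPM are relative, so a change common to all messages is not seen. The fit was tested on simulated data.

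Members and gene lists (53, of which 6 were added after the files were read) were chosen with earlier results of these data known. Genes were named by a rule: the 15 largest rises and falls with no replicate overlap and at least 10 TPM outside the chromosome IV stretch and the ends, 4 genes of each of these, up to 4 per list, 5 rises and falls per direct comparison, and a short fixed set. Further members of the phosphate, arginine, sulfur, iron and amino acid lists, CIT2 and ODC2 were named after their values were seen. Positions and sequences come from R64, to which 5954 names matched and 453 did not. Similar copies (BLAST 2.17.0) share at least 90% identity over at least 50% of the length. Alternatives were other pseudocounts and filters, median-ratio and quantile scaling, plain moderation, wider fits, the SWI3 wild type as control, a block for replicate number, and leaving out single libraries. The values of 1 listed gene are not reported here. Tables and figures were made with Python 3.11.15, pandas 2.3.3, numpy 2.4.6 and matplotlib 3.10.9.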

Additional observations from a re-analysis of the deposited data

Results flagged for a closer look

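The alleles snf2-W935R and snf2-Q928K were set against the same SNF2 wild type, and genes whose direct difference between them passed 4-fold were picked out from the genes named by rule. The difference was tested by limma in the 6 libraries of both alleles. SER3 was -4.53 ± 0.06 (SE, log2 of snf2-W935R over snf2-Q928K, adjusted p = 1.67e-12). HPF1, a wall mannoprotein, was -2.25 ± 0.07 (adjusted p = 3.31e-09), and IZH4, a zinc-regulated membrane protein, was -2.38 ± 0.14 (adjusted p = 2.18e-06). For these 3 genes all snf2-W935R libraries lay below all snf2-Q928K libraries. IZH4 had 11.2, 12.9 and 13.9 TPM in snf2-W935R, against 12.1, 11.6 and 9.10 TPM in SNF2, and 23.5, 20.2 and 20.9 TPM in the SWI3 wild type, so its position relative to wild type depends on which wild type is used.

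BSC1 was -2.40 ± 0.13 (adjusted p = 5.03e-07), with snf2-Q928K near wild type and snf2-W935R low. YHB1 ran the other way at 3.38 ± 0.06 (adjusted p = 3.12e-11), with snf2-W935R near wild type and snf2-Q928K low. YEL020C-B was -2.51 ± 0.23 (adjusted p = 0.000101), with 5.27, 7.31 and 3.63 TPM in snf2-W935R, 36.2, 40.8 and 27.6 TPM in snf2-Q928K and 7.69, 8.14 and 47.4 TPM in SNF2, where replicate 3 alone was high. What sets these differences was not tested.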

How the results depend on the processing

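With each library left out in turn, between 631 genes (without snf2-W935R replicate 1) and 1001 genes were higher, and between 482 genes (without snf2-W935R replicate 2) and 754 genes were lower, with 79 to 106 and 124 to 142 at least 2-fold. Against snf2del these ranges were 1333 to 1589 and 2905 to 3126, and against snf2-Q928K 648 to 1080 and 1468 to 1854. A pseudocount of 10 left 33 genes at least 2-fold higher and 79 lower. Median-ratio scaling gave 2327 genes higher against snf2del and 1475 against snf2-Q928K, and moved the higher share of calls against SNF2 from 56.6% to 50.2%.

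A fit with the replicate number as a block gave 1016 higher and 806 lower genes, and ARG3 lost its call (adjusted p = 0.0550). The numbers do not pair the samples, since same-numbered libraries correlated at 0.0065, 0.056 and -0.093 in their deviations from group means.

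The 234 genes named by rule gave 4163 comparisons with an alternative. In 3984 direction and call held, in 136 the call was lost, in 31 one was gained and in 12 the direction turned. All 12 came from the SWI3 wild type as control: PAU1 -0.48, PAU14 -0.48, AHA1 0.16, HTB1 0.28, MRPL7 0.10, COS3 -0.015, COS2 -0.040, ADH7 -0.012, AAD15 -0.036, SIR4 0.27, SNZ2 -0.43 and IZH4 -0.72. All but IZH4 lie at chromosome ends or in the chromosome IV stretch, and the cause was not tested. Unknown depth limits every statement on genes of low level.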
